A study of Mus musculus with 8 samples.

Results

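The 58 genes described here encode proteins that build kinetochores, spindles and the cytokinetic furrow, or that compact and separate mitotic chromosomes. They were taken by name from a table of normalized counts for 20172 mouse genes. All 58 were in the table. They were ordered into 9 structures: the spindle checkpoint and kinetochore corona (9 genes), the outer kinetochore (8), the inner centromere (5), the chromosomal passenger complex with the shugoshins (6), spindle assembly factors (6), mitotic kinesins (9), cytokinesis (4), anaphase entry (4), and condensin with other mitotic chromosome proteins (7).

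RNA had been sequenced from regulatory T cells (Tregs). The methods give male and female mice, 8 to 12 weeks old, for the study as a whole. The Tregs came from the spleens of female *Foxp3* CreYFP mice. In this strain the *Foxp3* gene drives a Cre recombinase joined to yellow fluorescent protein (YFP), so YFP marks cells that use *Foxp3*. YFP+ cells were sorted by surface TNFR2, a receptor for tumor necrosis factor, into TNFR2+ and TNFR2- Tregs, with 4 libraries of each. All 8 libraries share the genotype and tissue, and the labels give no treatment. The study describes its replicates here as mice (n = 4). The labels number the libraries 1 to 4 in each group, and no source used here ties a number to a mouse or says whether a mouse gave both fractions, so p-values measure the spread between these libraries.

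Kinetochores are protein assemblies that form on centromeres and hold chromosomes to the microtubules of the spindle. The checkpoint at the kinetochore delays anaphase until every chromosome is attached, after which separase opens the cohesin rings and the cell divides by closing a furrow at its midzone. Most of these genes are transcribed late in the cell cycle and are low in resting lymphocytes, whereas Tregs include a dividing fraction even in unchallenged mice.

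The summed normalized counts of a library ran from 9576920 to 11492762. The most frequent value under 3 lay between 0.85 and 1.15 in each library, so a normalized count stood for about 1 read. Groups were compared with limma, and FDR stands for its p after Benjamini-Hochberg adjustment over all genes tested, with a threshold of 0.05. *Tnfrsf1b*, the gene of TNFR2, checked the sort, with a mean of 2501 normalized counts in the TNFR2+ libraries, compared with 1321 in the TNFR2- libraries and no overlap between the groups (log2 fold change 0.90, FDR = 0.00449). *Foxp3* was present in all 8 libraries, at means of 3126 and 3664 (log2 fold change -0.23, FDR = 0.232). *Csf1r*, which defines macrophages, was at 0 in all TNFR2+ Treg libraries and in TNFR2- Treg replicates 1 and 2, and at 9.19 and 5.87 normalized counts in replicates 3 and 4, where *Mpo*, a gene of myeloid precursors, was at 7.70 and 13.3. The B cell gene *Ms4a1* was present in all libraries, at 45.0 to 79.9 in the TNFR2+ group, compared with 19.6 to 99.4 in the other (FDR = 0.808), as was *Cd79b*, at 15.3 to 64.6 compared with 2.25 to 35.1 (FDR = 0.528).

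Of the 58 mitotic genes, 29 passed the test as higher in TNFR2+ Tregs (50%), 1 was lower (*Smc4*), and 28 did not pass. Genes called higher came from 8 of the 9 structures, and included the proliferation marker *Mki67*, the passenger complex kinase *Aurkb*, the spindle factor *Tpx2* and the separase *Espl1*. Over all 13990 genes tested the same threshold called 7.91% in either direction, 4.52% higher and 3.39% lower. The log2 fold change was above 0 in 55 of the 58 genes, with a median of 1.70 and a range from -0.37 to 5.18, beside a median of -0.01 over all genes tested. In 31 of the 58 genes all 4 TNFR2+ values lay above all 4 TNFR2- values, an arrangement seen in 8.08% of all genes tested. The libraries are bulk RNA, so fewer dividing cells and less RNA per dividing cell cannot be told apart.

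**Figure D1:**
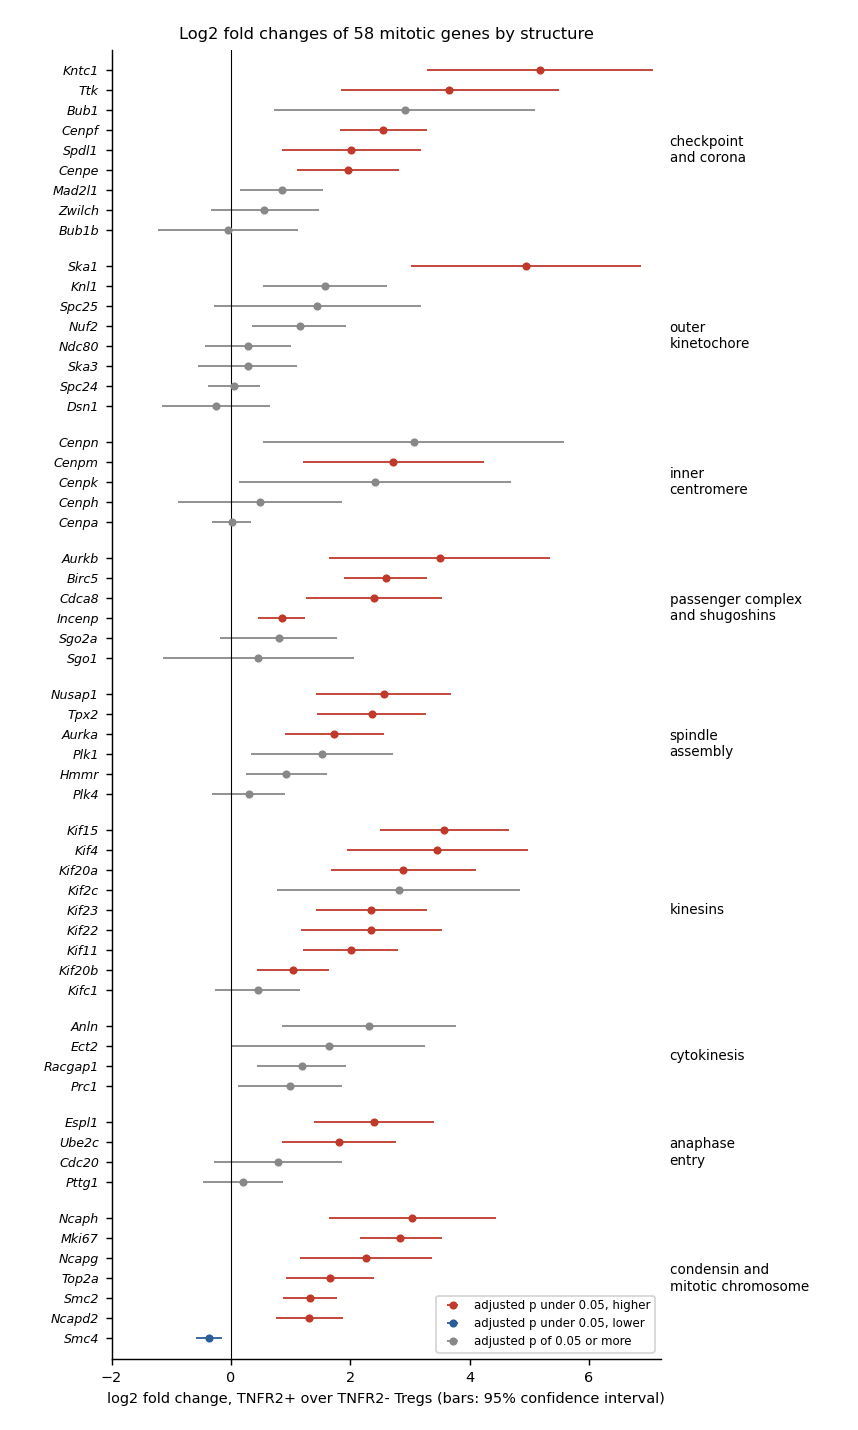
Log2 fold change (x axis, TNFR2+ over TNFR2- Tregs) of each of the 58 genes, grouped by structure, with bars for the 95% confidence interval from limma. Red points passed an adjusted p of 0.05 as higher (29 genes), the blue point as lower (Smc4), and grey points did not pass (28 genes).

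Among the 29 genes called higher, log2 fold changes ranged from 0.85 to 5.18, and the ratio of group means was above 2 in 27 and above 5 in 15. The groups did not overlap in 27 of the 29, and *Spdl1* and *Kif20b* overlapped in a library. Of the 28 genes that did not pass, 26 had a log2 fold change above 0, and in 23 the 95% interval reached above 1, so that a doubling lay within the interval. A call was kept in all 8 leave-one-out fits by 19 of the 30 called genes. The number called higher fell from 29 to 19 without TNFR2+ Treg replicate 2 and to 16 when limma was run without its intensity trend. The 13 genes that were then no longer called higher were *Aurkb*, *Cdca8*, *Cenpe*, *Incenp*, *Kif4*, *Kif11*, *Kif20b*, *Ncapd2*, *Ncapg*, *Ncaph*, *Spdl1*, *Top2a* and *Ube2c*.

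Averaged over the 58 genes on the log2(normalized count + 1) scale, the 4 TNFR2+ Treg libraries stood at 7.30, 7.62, 7.33 and 6.85 and the 4 TNFR2- Treg libraries at 5.88, 5.26, 5.76 and 5.16. TNFR2+ Treg replicate 2 had the highest value of its group for 30 of the 58 genes and replicate 4 the lowest for 33. Among TNFR2- Tregs, replicates 1 and 3 each had the highest value for 23 genes, while replicate 4 had the lowest for 25 and replicate 2 for 19. The order of libraries was thus shared by many of the genes, within both groups.

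**Figure D2:**
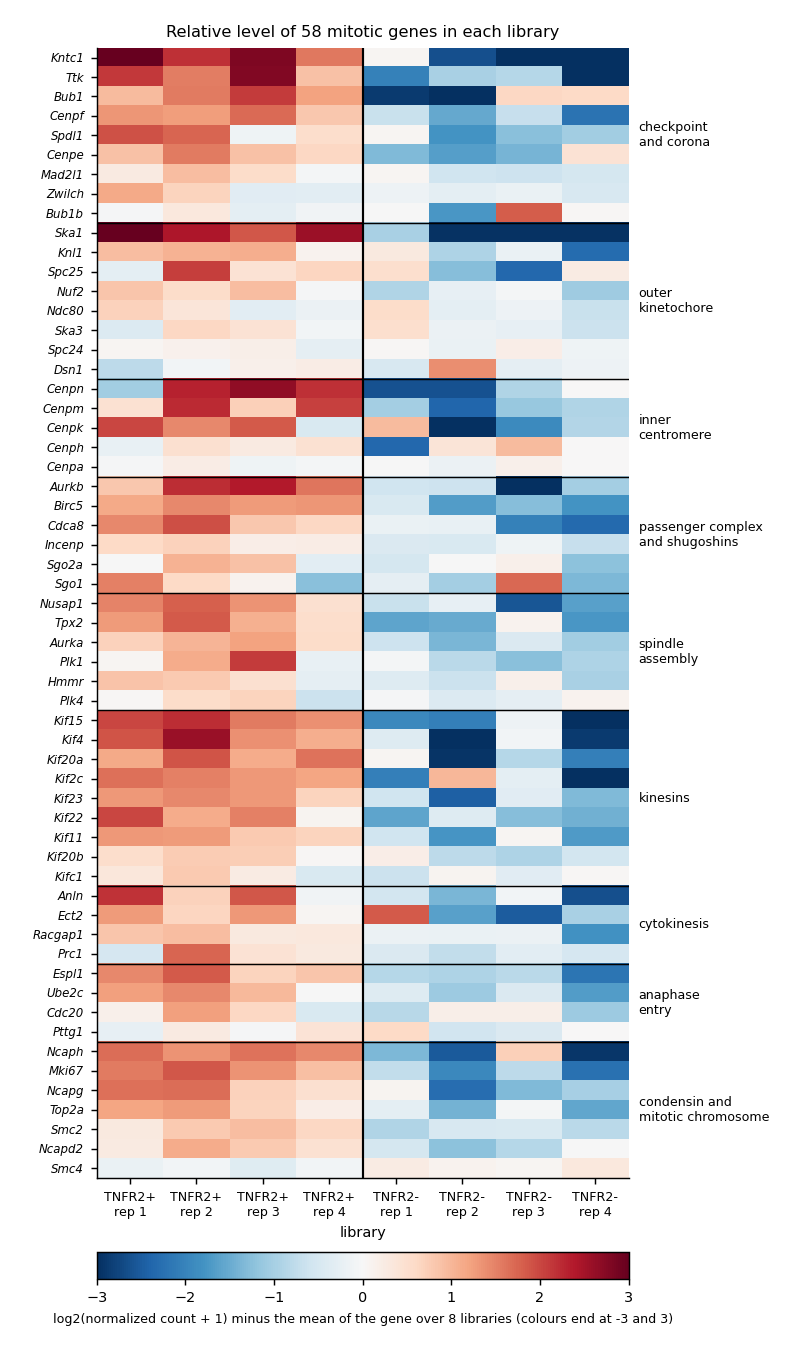
Level of each of the 58 genes (rows, by structure) in each of the 8 libraries (columns), as log2(normalized count + 1) minus the gene's mean over the 8 libraries, red above and blue below it. TNFR2+ Treg libraries are mostly red and TNFR2- Treg libraries mostly blue, with pale rows for Cenpa, Spc24, Pttg1 and Smc4.

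Many late cell cycle genes carry a short promoter element near their start, the cell cycle genes homology region (CHR), often with CCAAT boxes upstream of it. It is known as a binding element of the MuvB complexes that hold such genes off in resting cells and switch them on in G2 and mitosis. RefSeq promoter windows (GRCm38.p6, 250 bases before to 50 after a start) were given for 50 of the 58 genes. The CHR word searched was TTTGAA on either strand (TTCAAA on the other), and it was present for 35 of these 50 genes (70%), compared with 20.2% of all 27025 genes with a window and 14.6% of the tested genes with a window. The CCAAT word was found for 35 of the 50 (70%, compared with 41.1% of all genes and 43.2% of the tested genes), and both words together for 28 (56.0%, compared with 8.97% and 7.27%). E2F words (TTCCCGC or TTGGCGC, either strand) were found for 14 (28.0%, compared with 7.79% of all genes and 14.1% of the tested genes), and CCAAT and E2F words overlapped in 2 of the windows searched. The CHR word was present for 19 of the 24 genes called higher that had a window (79.2%) and for 16 of the other 26 (61.5%). All 8 kinesins and all 4 cytokinesis genes with a window held it, and 1 of 4 genes of the passenger complex and shugoshins did. Stretches before the RefSeq start are printed for 5 genes of different structures whose CHR word lay there, to show how the words sit. They are written 5′ to 3′ on the strand of the gene, from 120 bases before the RefSeq start, in lower case with CHR and CCAAT words in capitals. Each ends at the RefSeq start, or 2 bases past its last word where GENCODE places the transcript start earlier. By GENCODE, the last 24 bases printed for *Kif15*, 10 for *Kntc1*, 8 for *Espl1* and 9 for *Cenpn* lie inside the transcript. The CHR words of these genes are among those bases.
Mki67, chr7:135716380-135716499, minus strand: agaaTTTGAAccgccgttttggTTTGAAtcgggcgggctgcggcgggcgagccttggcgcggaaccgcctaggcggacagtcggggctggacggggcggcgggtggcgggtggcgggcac
Kif15, chr9:122950961-122951069, plus strand: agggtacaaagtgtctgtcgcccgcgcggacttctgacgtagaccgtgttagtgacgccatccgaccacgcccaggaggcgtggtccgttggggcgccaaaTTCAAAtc
Kntc1, chr5:123749606-123749725, plus strand: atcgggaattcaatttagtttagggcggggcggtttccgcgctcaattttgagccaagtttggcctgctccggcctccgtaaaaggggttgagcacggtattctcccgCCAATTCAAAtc
Espl1, chr15:102296173-102296273, plus strand: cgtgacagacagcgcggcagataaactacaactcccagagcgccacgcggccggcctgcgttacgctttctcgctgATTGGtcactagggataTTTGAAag
Cenpn, chr8:116921620-116921738, plus strand: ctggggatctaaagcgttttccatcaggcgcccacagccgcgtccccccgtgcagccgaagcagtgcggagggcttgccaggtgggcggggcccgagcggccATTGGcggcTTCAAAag

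The stretch of *Mki67* held 2 CHR words, at -116 and -98 bases from the RefSeq start. Its CCAAT words lay further upstream in the window, at -188, -166 and -141, before the part that is printed. In *Kif15* the word began at -19, in *Espl1* at -27 with a CCAAT word at -44, and in *Cenpn* at -9 with a CCAAT word at -18. In *Kntc1* the CCAAT word at -12 and the CHR word at -8 shared a base. Over all windows of the mitotic genes, 36 of 46 CHR words (78.3%) began within 50 bases of the start, compared with 25.3% of the 6737 CHR words of all genes. The 55 windows cover 50 genes, and a word in overlapping windows of a gene was counted in each of them. A word is a match of letters and does not show that a factor was bound there.

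**Figure D3:**
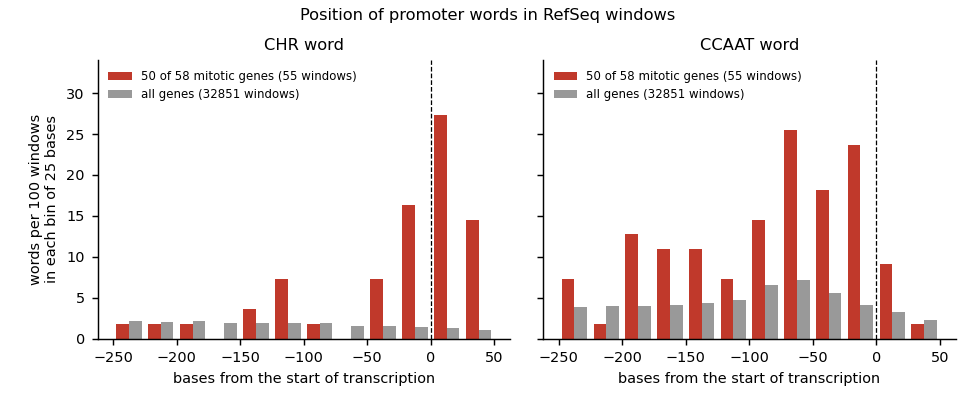
Number of CHR words (left) and CCAAT words (right) per 100 promoter windows in bins of 25 bases along the distance from the RefSeq start (x axis), for 55 windows of 50 mitotic genes (red) and 32851 windows of all genes (grey). CHR words of the mitotic genes gather around the start and their CCAAT words upstream of it.

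Checkpoint and corona genes were called in 5 of 9 cases, with a median log2 fold change of 2.02. *Kntc1*, the ROD subunit of the complex that brings dynein and the Mad1-Mad2 proteins to unattached kinetochores (chromosome 5 from 123749716 to 123821593 in GRCm38), had the largest log2 fold change of the 58 genes at a pseudocount of 1. It had 358, 117, 179.7 and 76.8 normalized counts in replicates 1 to 4 of TNFR2+ Tregs, and 26.0, 3.15, 2.11 and 0 in those of TNFR2- Tregs. The groups did not overlap, and values within each group were far apart. The log2 fold change was 5.18 (95% interval 3.28 to 7.07, FDR = 0.00304), and it was 4.05 with a pseudocount of 5 in place of 1. Of the TNFR2- values, 3 lay near 0. With a pseudocount of 0.5 *Ska1* was above it, at 5.73 compared with 5.54, and the ratio of group means was 59.0 for *Ska1* and 23.4 for *Kntc1*. *Cenpf*, a large corona protein that links to dynein regulators, had 571, 541, 744 and 399.7 normalized counts in the TNFR2+ libraries, compared with 142, 77.4, 140.5 and 48.5 in the TNFR2- libraries, in the same order of replicates. Even the lowest TNFR2+ library was far above the highest TNFR2- library, with a log2 fold change of 2.55 (SE 0.34, FDR = 0.000712). *Cenpe*, the corona kinesin that carries chromosomes to the spindle equator, had 403, 643, 402 and 337 normalized counts in the TNFR2+ libraries, compared with 86.5, 69.5, 82.7 and 297 in the TNFR2- libraries. TNFR2- Treg replicate 4 reached nearly the lowest TNFR2+ value for this gene while the other 3 stayed low (log2 fold change 1.96, SE 0.40, FDR = 0.00891).

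*Ttk*, the MPS1 kinase that starts checkpoint signaling, and *Spdl1*, the Spindly adaptor of dynein at kinetochores, also rose. Their log2 fold changes were 3.66 (FDR = 0.0179) and 2.02 (FDR = 0.0363). Without TNFR2+ Treg replicate 1 or 2 the number of checkpoint and corona genes called was 3 in place of 5, since *Ttk* and *Spdl1* no longer passed (*Ttk* with an FDR of up to 0.0836 and *Spdl1* of up to 0.125 over all fits without a library). The other 4 genes of this group did not pass. *Bub1*, a kinase that marks the inner centromere, had a log2 fold change of 2.91 with a wide interval from 0.73 to 5.09 (FDR = 0.0998), with no overlap between the groups. *Mad2l1*, the MAD2 protein that holds back CDC20, and *Zwilch*, the partner of ROD, had log2 fold changes of 0.85 and 0.56. *Bub1b*, the BUBR1 protein of the same inhibitory complex, had 149, 189.9, 123 and 141 normalized counts in the TNFR2+ libraries, compared with 151, 44.6, 533 and 155 in the TNFR2- libraries. TNFR2- Treg replicate 3 held the highest and replicate 2 the lowest value of all 8, and the log2 fold change was -0.05 (95% interval -1.22 to 1.13).

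Outer kinetochore genes, whose products include those that grip microtubules directly, had the lowest median among the 9 structures (0.72), and 1 of 8 was called. That gene was *Ska1*, a subunit of the SKA complex that tracks microtubule ends (chromosome 18 from 74195299 to 74207818). It had 63.0, 41.5, 27.6 and 45.5 normalized counts in the TNFR2+ libraries. In TNFR2- Tregs, replicate 1 stood at 3.01 and replicates 2 to 4 at 0. The log2 fold change was 4.95 (SE 0.89, FDR = 0.00449), or 3.09 with a pseudocount of 5 and 5.73 with one of 0.5. The other SKA gene, *Ska3*, had group means of 74.6 ± 23.5 and 61.6 ± 22.3 normalized counts (SD, n = 4 each), and its log2 fold change was 0.28 (95% interval -0.55 to 1.11).

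*Knl1*, the scaffold for BUB1 at the kinetochore, had 219.9, 238, 248 and 125 normalized counts in the TNFR2+ libraries, compared with 142, 60.8, 100.2 and 22.5 in the TNFR2- libraries. Only TNFR2+ Treg replicate 4 lay below a TNFR2- library, and the log2 fold change of 1.57 did not pass (FDR = 0.0641). *Nuf2*, an NDC80 complex subunit, had 141, 116, 151 and 76.8 normalized counts in the TNFR2+ libraries, compared with 41.3, 65.6, 75.5 and 37.0 in the TNFR2- libraries. Its groups did not overlap, though by a narrow margin, and its log2 fold change was 1.15 (FDR = 0.0729). The 3 other subunits of that complex did not pass either, with log2 fold changes of 0.29 for *Ndc80*, 1.44 for *Spc25* and 0.05 for *Spc24*. *Spc24* had nearly equal means, 245 ± 31.9 and 237 ± 30.7 normalized counts (SD, n = 4 each), and the 95% interval of its log2 fold change ran from -0.39 to 0.49. *Dsn1*, of the MIS12 complex that joins the outer to the inner kinetochore, had 61.7, 102, 119 and 126 normalized counts in the TNFR2+ libraries, compared with 76.5, 285, 89.7 and 96.3 in the TNFR2- libraries. A single TNFR2- library stood high for *Dsn1*, and the log2 fold change was -0.25 (95% interval -1.15 to 0.65). Without TNFR2- Treg replicate 1 the outer kinetochore held 2 called genes, and without TNFR2- Treg replicate 3 it held 3 (*Ska1*, *Knl1* and *Nuf2*).

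Inner centromere genes encode the centromeric histone and the constitutive centromere proteins that sit on it. Their median log2 fold change, 2.42, was the highest of the 9 structures, and 1 of the 5 genes was called. *Cenpm*, a constitutive subunit (chromosome 15 from 82233779 to 82244748), was called. It had 20.6, 73.2, 24.9 and 64.7 normalized counts in the TNFR2+ libraries, compared with 6.82, 2.02, 6.15 and 7.45 in the TNFR2- libraries. The 4 TNFR2- values were all under 8 and the TNFR2+ values fell into a lower and a higher pair (log2 fold change 2.72, SE 0.70, FDR = 0.0310). Without TNFR2+ Treg replicate 2, 3 or 4 or TNFR2- Treg replicate 2 it no longer passed (FDR up to 0.134), which left no called gene in this group. *Cenpn*, which reads the centromeric nucleosome, had 2.00, 29.6, 38.2 and 26.9 normalized counts in the TNFR2+ libraries, compared with 0, 0, 2.32 and 5.19 in the TNFR2- libraries. TNFR2+ Treg replicate 1 lay among the TNFR2- values, and the log2 fold change of 3.06 did not pass (FDR = 0.132). *Cenpk*, also a constitutive subunit, had 31.0, 20.7, 27.4 and 4.77 normalized counts in the TNFR2+ libraries, compared with 14.2, 0, 1.13 and 3.28 in the TNFR2- libraries, with overlap through TNFR2+ Treg replicate 4 (log2 fold change 2.42, FDR = 0.190). *Cenph* had a log2 fold change of 0.49 (95% interval -0.88 to 1.86). *Cenpa*, the histone H3 variant that marks the centromere, was close to level at 600.2 ± 67.3 and 595 ± 54.5 normalized counts (SD, n = 4 each). The 95% interval of its log2 fold change, from -0.32 to 0.34, was among the narrowest of the 58.

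The chromosomal passenger complex corrects faulty attachments and later moves to the spindle midzone, and all 4 of its genes were called. *Birc5*, the survivin subunit, had 258, 314, 283 and 292 normalized counts in the TNFR2+ libraries, compared with 84.7, 35.9, 47.7 and 32.8 in the TNFR2- libraries. The TNFR2+ libraries were nearly level for this gene, and the groups were well apart. *Incenp*, the scaffold of the complex (chromosome 19 from 9872296 to 9899551), had 904, 972, 688 and 697 normalized counts in the TNFR2+ libraries, compared with 441, 438, 551 and 372 in the TNFR2- libraries. Its log2 fold change was 0.85 (SE 0.18, FDR = 0.0110), beside 2.59 for *Birc5*. *Cdca8*, the borealin subunit, had 204, 286, 132 and 114 normalized counts in the TNFR2+ libraries, compared with 64.8, 63.2, 17.4 and 14.0 in the TNFR2- libraries. The lower pair of TNFR2+ libraries was still above every TNFR2- library (log2 fold change 2.40, FDR = 0.0138, or 0.0574 without TNFR2+ Treg replicate 2). *Aurkb*, the kinase of the complex, had a log2 fold change of 3.5 (FDR = 0.0237), and it did not pass without TNFR2+ Treg replicate 2, 3 or 4 (FDR up to 0.0806). Without TNFR2+ Treg replicate 2, 2 of the 4 genes were called. The shugoshins, which shield centromeric cohesin, did not pass, with log2 fold changes of 0.80 for *Sgo2a* and 0.46 for *Sgo1*. The ratio of *Birc5* to *Incenp* normalized counts, which are not scaled by length, was 0.285 to 0.419 in the TNFR2+ libraries, compared with 0.0819 to 0.192 in the TNFR2- libraries.

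Spindle assembly factors were called in 3 of 6 cases. *Tpx2*, which activates Aurora A on spindle microtubules (chromosome 2 from 152847964 to 152895321), had 300.2, 444, 260.4 and 176 normalized counts in the TNFR2+ libraries, compared with 40.6, 42.2, 133 and 36.2 in the TNFR2- libraries. TNFR2- Treg replicate 3 was the only library of its group above 50, and it stayed below the lowest TNFR2+ value (log2 fold change 2.36, SE 0.42, FDR = 0.00423). *Nusap1*, a protein that bundles spindle microtubules, had 148, 182, 135 and 73.0 normalized counts in the TNFR2+ libraries, compared with 32.2, 43.8, 7.91 and 16.2 in the TNFR2- libraries. Its groups were apart in every library (log2 fold change 2.56, SE 0.53, FDR = 0.00925). *Aurka*, the Aurora A kinase, had 86.9, 109, 125 and 78.1 normalized counts in the TNFR2+ libraries, compared with 34.5, 20, 39.4 and 25.3 in the TNFR2- libraries. The groups did not overlap and the spread was small in both (log2 fold change 1.73, FDR = 0.0138), although the call was lost without TNFR2+ Treg replicate 2 or 3 (FDR up to 0.0551). *Plk1*, the polo-like kinase of mitotic entry, and *Hmmr*, a spindle pole protein, had log2 fold changes of 1.53 (FDR = 0.113) and 0.93 (FDR = 0.0895). *Plk4*, the kinase of centriole duplication, had a log2 fold change of 0.30 (95% interval -0.31 to 0.91).

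Mitotic kinesins were called in 7 of 9 cases, with a median log2 fold change of 2.35. *Kif15*, which helps to hold spindle poles apart (chromosome 9 from 122951046 to 123018733), had 366, 420.4, 269 and 235 normalized counts in the TNFR2+ libraries, compared with 22.9, 20.9, 80.6 and 10.4 in the TNFR2- libraries. The lowest TNFR2+ library was well above the highest TNFR2- library, and the log2 fold change was 3.57 (SE 0.50, FDR = 0.000987). *Kif23*, the motor of the centralspindlin complex at the midzone, had 253, 279, 250.1 and 161 normalized counts in the TNFR2+ libraries, compared with 67.3, 17.9, 79.7 and 39.7 in the TNFR2- libraries. *Kif11*, the Eg5 motor that separates the poles, had 589, 579, 414 and 381 normalized counts in the TNFR2+ libraries, compared with 158, 70.1, 249 and 72.9 in the TNFR2- libraries. For both genes TNFR2- Treg replicates 2 and 4 were the low pair, and the groups did not overlap. The log2 fold changes were 2.35 (SE 0.43, FDR = 0.00457) for *Kif23* and 2.01 (SE 0.37, FDR = 0.00485) for *Kif11*. The chromosome arm motors *Kif4* and *Kif22* had log2 fold changes of 3.45 (FDR = 0.00884) and 2.35 (FDR = 0.0187). The midzone motors *Kif20a* and *Kif20b* had 2.89 (FDR = 0.00676) and 1.04 (FDR = 0.0373). *Kif22* was not called in 3 and *Kif20b* in 6 of the 8 fits without a library (FDR up to 0.0774 and 0.117), all of them among the fits without TNFR2+ Treg replicates 1 to 3 or TNFR2- Treg replicates 2 to 4. *Kif2c*, the MCAK protein that takes microtubules apart at centromeres, had a log2 fold change of 2.82 with no overlap (FDR = 0.0877). *Kifc1*, the minus-end motor, had 0.45 (95% interval -0.26 to 1.15), and its reads could be shared with *Kifc5b*, a near copy over a share of 0.981 of its transcript.

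None of the 4 cytokinesis genes was called, although all 4 had a log2 fold change above 0.9 and an unadjusted p under 0.05 by limma. *Anln*, the anillin scaffold of the contractile ring (chromosome 9 from 22332012 to 22389188), had 144, 50.6, 117 and 29.0 normalized counts in the TNFR2+ libraries, compared with 21, 11.5, 29.2 and 4.18 in the TNFR2- libraries. *Racgap1*, the partner of KIF23 in centralspindlin, had 540.1, 575, 373 and 375 normalized counts in the TNFR2+ libraries, compared with 268, 264, 267 and 84.5 in the TNFR2- libraries. *Prc1*, which bundles the midzone microtubules, had 79.7, 383, 153 and 139.9 normalized counts in the TNFR2+ libraries, compared with 83.7, 67.4, 91.3 and 79.9 in the TNFR2- libraries. *Racgap1* did not overlap between the groups, *Anln* met at the lowest TNFR2+ library, and for *Prc1* TNFR2+ Treg replicate 1 lay within the narrow TNFR2- range. The log2 fold changes were 2.32 (95% interval 0.86 to 3.77, FDR = 0.0528) for *Anln*, 1.19 (0.44 to 1.93, FDR = 0.0534) for *Racgap1* and 0.99 (0.12 to 1.86, FDR = 0.161) for *Prc1*. *Ect2*, the exchange factor that turns on RhoA at the furrow, had 1.64 (0.02 to 3.25, FDR = 0.210), with TNFR2- Treg replicate 1 at 198 normalized counts, the highest of all 8 libraries. Cytokinesis genes passed in 3 of the fits without a library, 1 gene without TNFR2+ Treg replicate 4 (*Anln*), 1 without TNFR2- Treg replicate 1 (*Ect2*) and 2 without TNFR2- Treg replicate 3 (*Anln* and *Racgap1*).

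Anaphase entry genes were called in 2 of 4 cases. *Espl1*, the separase that cuts cohesin (chromosome 15 from 102296266 to 102324357), had 126, 164, 72.6 and 81.5 normalized counts in the TNFR2+ libraries, compared with 24.4, 23.3, 25.2 and 9.13 in the TNFR2- libraries. The groups were far apart, with a log2 fold change of 2.40 (SE 0.46, FDR = 0.00664). *Ube2c*, the ubiquitin-conjugating enzyme of the anaphase-promoting complex, had 142, 164, 118 and 58.8 normalized counts in the TNFR2+ libraries, compared with 45.1, 27.4, 43.7 and 17.9 in the TNFR2- libraries. It was apart in every library as well (log2 fold change 1.81, FDR = 0.0230), but it did not pass without TNFR2+ Treg replicate 1, 2 or 3 or TNFR2- Treg replicate 2 or 4 (FDR up to 0.0895), which left 1 called gene in this group. *Cdc20*, the activator of that complex, had 47.2, 100.2, 65.9 and 30.7 normalized counts in the TNFR2+ libraries, compared with 23.3, 48.1, 47.4 and 19.3 in the TNFR2- libraries. These ranges overlapped, and the log2 fold change was 0.79 (FDR = 0.379). *Pttg1*, the securin that restrains separase, had a log2 fold change of 0.20 (95% interval -0.47 to 0.87), beside 2.40 for *Espl1*.

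Condensin and mitotic chromosome genes were called in all 7 cases, 6 higher and 1 lower. *Mki67*, the Ki-67 protein that coats mitotic chromosomes (chromosome 7 from 135689784 to 135716361), had the smallest adjusted p of the 58 genes. It had 4120.3, 5041, 3553 and 2622 normalized counts in the TNFR2+ libraries, compared with 837, 361, 814 and 295 in the TNFR2- libraries. Every TNFR2+ library was at least 3 times the highest TNFR2- library, and among TNFR2- Tregs replicates 2 and 4 were the low pair. *Smc2*, a core condensin ATPase, had 379, 530.2, 584 and 473 normalized counts in the TNFR2+ libraries, compared with 163, 221, 224 and 176 in the TNFR2- libraries. *Ncapd2*, a condensin I subunit, had 525, 931, 748 and 595 normalized counts in the TNFR2+ libraries, compared with 299, 185, 240.2 and 427 in the TNFR2- libraries. For both condensin genes the groups were apart, and the log2 fold changes were close, 1.32 (SE 0.21, FDR = 0.00191) and 1.31 (SE 0.26, FDR = 0.00785). The other condensin I genes *Ncaph* and *Ncapg* had 3.04 (FDR = 0.0111) and 2.26 (FDR = 0.0166), *Ncapg* with FDR values up to 0.0670 without TNFR2+ Treg replicate 1 or 2. *Top2a*, the topoisomerase that untangles sister chromatids, had 1.66 (FDR = 0.00909).

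*Smc4*, the ATPase that pairs with SMC2 in condensin (chromosome 3 from 69004738 to 69034623), went the other way. It had 7712, 8279, 6809.8 and 8273 normalized counts in the TNFR2+ libraries, compared with 10424, 9493, 9164 and 10979.6 in the TNFR2- libraries. All 4 TNFR2- libraries were higher, by a modest amount, with a log2 fold change of -0.37 (SE 0.10, FDR = 0.0437). The call rests on all libraries together. It was lost in each of the fits without a library except the one without TNFR2- Treg replicate 3 (FDR up to 0.133), with log2 fold changes between -0.41 and -0.31. After quantile normalization the log2 fold change was -0.17 (FDR = 0.325), and without the intensity trend the FDR was 0.206. The ratio of *Smc2* to *Smc4* normalized counts, not scaled by length, was 0.0491 to 0.0858 in the TNFR2+ libraries, compared with 0.0156 to 0.0244 in the TNFR2- libraries. *Smc4* alone made up 29.3% to 41.5% of the summed normalized counts of the 58 genes, not scaled by length, in the TNFR2+ libraries, compared with 56.4% to 70.2% in the TNFR2- libraries. Without it, the other 57 genes summed to between 11679 and 19930 in the TNFR2+ libraries, compared with between 4667 and 7072 in the TNFR2- libraries.

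**Figure D4:**
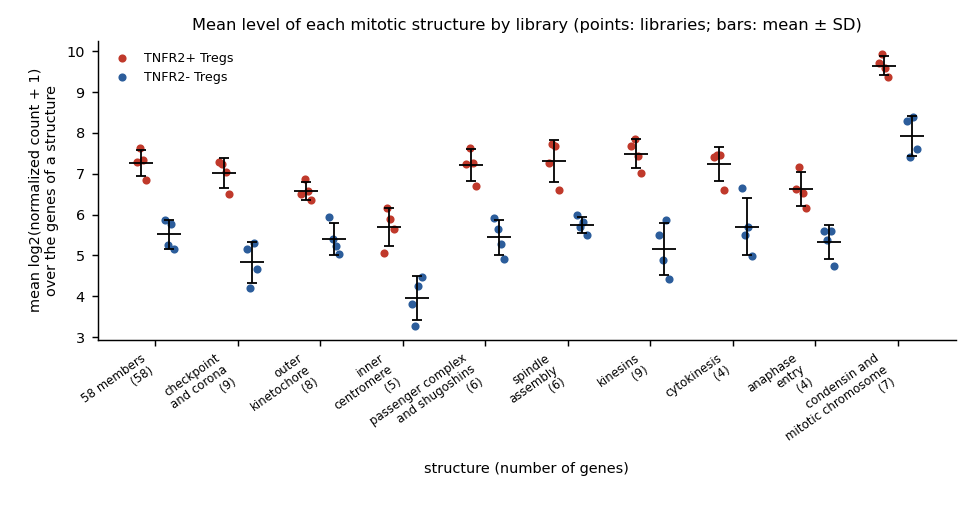
Mean log2(normalized count + 1) over the genes of each structure (y axis) in each library (points, TNFR2+ red and TNFR2- blue), with black bars for the mean ± SD of 4 libraries. The libraries of the groups are apart in all structures except cytokinesis, where TNFR2- Treg replicate 1 (6.64) lies above TNFR2+ Treg replicate 4 (6.61).

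The genes differed in level as well as in change. Per kilobase of the longest annotated transcript, *Smc4* had the highest level in both groups, 1799.9 normalized counts per kilobase in the TNFR2+ libraries, compared with 2320.5 in the TNFR2- libraries. In TNFR2+ Tregs it was followed by *Mki67* (381), *Incenp* (236), *Top2a* (214) and *Cenpa* (158). In TNFR2- Tregs *Cenpa* (156), *Spc24* (139.7), *Incenp* (131) and *Pttg1* (75.2) came next, and *Mki67* stood at 57.3. Some of the genes that were near level between the groups were thus among the higher ones in TNFR2- Tregs. The lowest levels in TNFR2- Tregs were those of *Ska1* (0.286), *Cenpn* (0.752) and *Ttk* (1.02), and the fold changes of such low genes depend on the pseudocount.

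Related genes outside the 58 were compared through 8 lists. Of their 135 tested genes, 17 were higher (12.6%) and 2 lower past the threshold, with a median log2 fold change of 0.29. Over all genes tested, 4.52% were higher and 3.39% lower. Of 34 other spindle and cytokinesis genes, 11 were called higher and none lower, with a median of 1.14. They were led by *Shcbp1*, a centralspindlin partner, at 62.2 ± 14.3 and 1.77 ± 2.83 normalized counts (SD, n = 4; log2 fold change 4.98, FDR = 0.00274). *Nek2*, a centrosome kinase, and *Kif14*, a midbody kinesin, followed at 3.05 (FDR = 0.00308) and 2.59 (FDR = 0.00482). The count in this list was 4 without TNFR2+ Treg replicate 2 and 7 without replicate 3. Of the 12 tested genes of mitotic transcription and CDK1, 2 were called, *Ccna2* (3.74, FDR = 0.0240) and *Ccnb2* (2.96, FDR = 0.00690), the cyclins A2 and B2. *Cdk1*, their kinase, had 3.07 (FDR = 0.0547), and 1 of the 12 genes was called without TNFR2+ Treg replicate 1, 2 or 3. The median of this list was 0.21, and 4 of the 12 genes had a log2 fold change below 0. Among these were *Lin52* (-0.90, FDR = 0.212), *Mybl2* (-0.23, FDR = 0.786) and *Cdc25b* (-0.20, FDR = 0.682). Of 3 condensin II genes *Ncapg2* was called (1.77, FDR = 0.00475), with *Ncaph2* at 0.32 and *Ncapd3* at -0.23.

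Calls in the other lists stand beside the 7.91% of all genes tested that passed in either direction. In lists this short, no call or 1 call cannot be told apart from that share. None of 25 other kinetochore and checkpoint genes passed by limma (6 had an unadjusted p under 0.05, all higher), with a median of 0.27. In this list 1 gene passed without TNFR2+ Treg replicate 4, or TNFR2- Treg replicate 1 or 3. None of the 16 anaphase-promoting complex genes passed by limma (3 unadjusted, all higher), with a median of 0.24. None of the 17 genes of the gamma-tubulin ring and augmin, which nucleate microtubules, passed by limma or had an unadjusted p under 0.05, and their median was 0.21. Among 12 cohesin genes the median was -0.06 and *Stag1*, a cohesin subunit, was lower (-0.54, FDR = 0.0415). Cohesin genes passed in 2 of the 8 fits without a library, 1 gene without TNFR2+ Treg replicate 4 and 2 without TNFR2- Treg replicate 3. *Cdca5*, the sororin that protects cohesin in mitosis, had 2.44 (FDR = 0.0521). Of 16 tested transport kinesins, which move cargo in interphase cells, 4 were called. *Kif13a* (1.45, FDR = 0.000494), *Kif5c* (0.97, FDR = 0.0391) and *Kif13b* (0.55, FDR = 0.0482) were higher and *Kif21b* (-0.66, FDR = 0.00222) was lower. The median of the 16 genes was 0.03, and 2 genes of this list were called without TNFR2+ Treg replicate 1, 3 or 4 or TNFR2- Treg replicate 2 or 4.

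**Figure D5:**
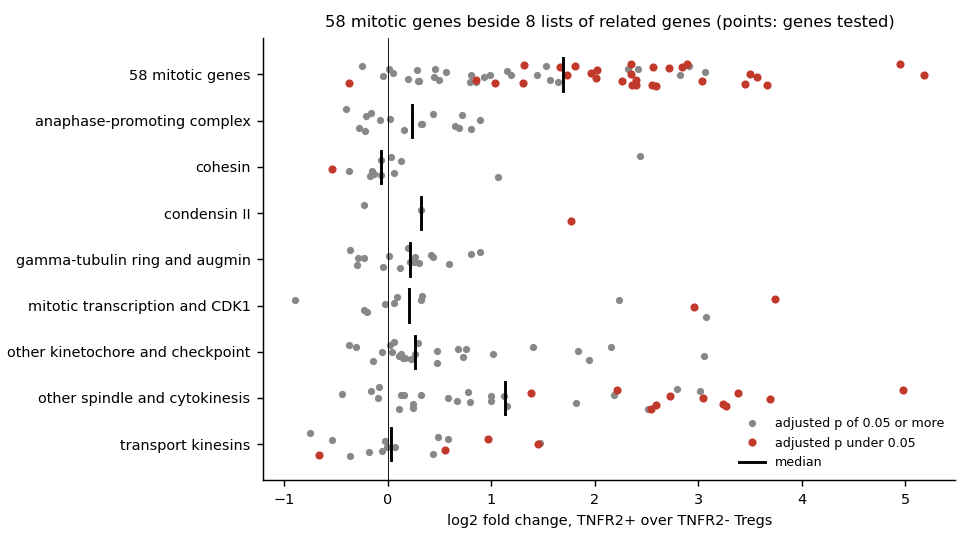
Log2 fold changes (x axis) of the 58 mitotic genes and of the tested genes of 8 related lists (rows), red where the adjusted p was under 0.05, with a black line at the median of each row. The median is 1.70 for the 58 genes and 1.14 for other spindle and cytokinesis genes, and between -0.06 and 0.32 for the other 7 lists.

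The share of promoters with the CHR word was counted for the same lists. It was 57.7% (15 of 26 genes with a window) for other spindle and cytokinesis genes and 50% (4 of 8) for mitotic transcription and CDK1. It was 29.2% for other kinetochore and checkpoint genes, 25% for cohesin, 13.3% for the anaphase-promoting complex, 12.5% for transport kinesins and 8.33% for the gamma-tubulin ring and augmin. These shares are descriptions of the windows, over as few as 3 genes in condensin II, where 2 held the word.

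Markers of other cells were measured beside the mitotic genes, since other dividing cells in a sort would carry the same transcripts. For B and plasma cells, 11 of 14 markers were in the table. Their summed normalized counts ran from 471 to 588 in TNFR2+ libraries and from 261 to 552 in TNFR2- libraries. Only 6 of them reached the mean needed for testing, and none was called. For myeloid cells (7 of 13 markers) the sums ran from 218 to 346 against 232 to 330, with none of the 4 tested called. For erythroid cells (2 of 9) they ran from 22 to 45 against 40 to 89, and the 1 gene tested was not called. For cytotoxic lymphocytes (8 of 10) they ran from 148 to 236 against 113 to 170, and of the 4 tested *Nkg7* was called higher. For Tregs and T cells (7 of 7) they ran from 28654 to 33256 against 21850 to 26619, with *Ikzf2*, *Ctla4* and *Cd3e* called higher. Of the same markers, *Il2ra* (log2 fold change -0.34, FDR = 0.086) and *Foxp3* (-0.23, FDR = 0.232) were lower without passing. *Cd4* was higher without passing (0.28, FDR = 0.192). The part of other cells in the mitotic genes was not tested. By annotation, 12 of the 58 genes overlap a protein-coding gene on the opposite strand, among them *Cdca8*, *Kif20a*, *Kif4*, *Ncapg*, *Nusap1* and *Ube2c*. The library kit keeps the strand, but the strand setting of the counting is not given in the sources used here.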

How the data were processed

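RNA was measured in 4 TNFR2+ and 4 TNFR2- Treg libraries grouped by their labels. The authors extracted RNA from sorted cells, prepared stranded total RNA libraries, trimmed reads with Trim Galore and estimated transcript abundance with Salmon 1.3.0 on the Ensembl GRCm38 transcriptome. Gene counts were normalized with DESeq2 1.28 in R 4.0, as the methods and the submitters' processing notes state. The deposited values are this normalized signal per gene, with decimals and not on a log scale, so no model of read counts was fitted. How transcripts were summed to genes is not given in the sources used here.

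Symbols, coordinates and transcript lengths came from the GENCODE annotation of GRCm38, which matched 20008 of 20172 identifiers. Genes with a mean of at least 10 normalized counts were tested (13990, with all 58 mitotic genes, whose lowest mean was 12.8). Groups were compared with limma 3.58.1 (R 4.3.3) on log2(value + 1), with an intensity trend, two-sided, Benjamini-Hochberg adjustment over all genes tested and a threshold of 0.05. Fold changes are differences of group means on that scale. For low genes they depend on the pseudocount and can lie above or below the log2 ratio of group means. The procedure was tested on simulated data. The simulated spread was set from a gene's mean alone and was smaller than that of some of the 58 genes. It therefore does not show how calls hold at the spread of those genes. For a single gene, an exact permutation test over 70 relabellings cannot give a p below 0.0286, which 32 of the 58 genes reached. Near copies were sought with blastn at 95% identity over 50% of a transcript. Alternatives changed the pseudocount, filter, scaling, trend, genes tested, replicate block and libraries.

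The 58 genes and all lists were chosen with earlier results of these data known. Values are given in every library for the 3 genes of smallest adjusted p in each structure and every gene with a log2 fold change below 0. Of each related list, genes were named from the 3 of smallest adjusted p in each direction. Promoters are printed for the gene of smallest adjusted p in up to 5 structures whose window held the CHR word before the RefSeq start, apart from chromosome 18.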

Additional observations from a re-analysis of the deposited data

Results flagged for a closer look

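In 9 of the 116 groups of 4 libraries (58 genes in 2 populations), the highest or lowest library stood apart from the other 3 by Dixon's criterion. For independent, normally distributed values chance flags about 1 in 20, or 5.8. These groups share 8 libraries and include values at 0, so 9 beside 5.8 is a description. The other 3 TNFR2- values of *Ska1* were 0, where any value above 0 is flagged. High values were those of TNFR2- Treg replicate 1 for *Mad2l1* (93.1 normalized counts) and *Ska1* (3.01), TNFR2- Treg replicate 4 for *Cenpe* (297) and TNFR2- Treg replicate 3 for *Tpx2* (133). Low values were those of TNFR2+ Treg replicate 1 for *Cenpn* (2.00), TNFR2- Treg replicate 2 for *Cenpm* (2.02), TNFR2- Treg replicate 3 for *Aurkb* (0), and TNFR2- Treg replicate 4 for *Racgap1* (84.5) and *Espl1* (9.13).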

How the results depend on the processing

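No log2 fold change of the 58 genes changed sign past the threshold in any alternative run, and the median over the 58 lay between 1.55 and 1.89 over all of them. Over the fits without a library, genes called higher ranged from 19 to 33 and lower from 0 to 1. By structure, calls ranged from 3 to 5 for checkpoint and corona, 1 to 3 for the outer kinetochore, 0 to 1 for the inner centromere, 2 to 4 for the passenger complex and shugoshins, 0 to 2 for cytokinesis and 1 to 2 for anaphase entry. By list they ranged from 0 to 1 for other kinetochore and checkpoint, 4 to 13 for other spindle and cytokinesis, 0 to 2 for cohesin, 2 to 5 for transport kinesins and 1 to 3 for mitotic transcription and CDK1. Without the intensity trend, 16 were called higher and 0 lower, with 3 in checkpoint and corona, 1 in the passenger complex, 4 kinesins, 1 in anaphase entry and 2 in condensin and mitotic chromosome. In the lists, it left 7 other spindle and cytokinesis genes, 0 cohesin genes, 1 transport kinesin and 1 gene of mitotic transcription. With a mean of at least 50, fewer genes were tested, and calls were 0 in the outer kinetochore, 0 in the inner centromere, 1 in cytokinesis and 5 in other spindle and cytokinesis. *Smc4* was not called without a filter or after quantile normalization, so that 0 were lower. Cytokinesis held 2 calls with a pseudocount of 5 or in protein-coding genes only and 1 without a filter, other kinetochore and checkpoint 1 under each of these 3, and cohesin 2 under the first and second. Deviations of same-numbered libraries from their group means had correlations between -0.039 and 0.001, and none was best with its own number. Such values cannot tell whether a mouse gave both fractions. The replicate block called 32 of the 58, with 2 in the outer kinetochore, 0 in the inner centromere and 2 in cytokinesis. Upper-quartile rescaling moved the median of all genes to -0.066 and the share of calls that were higher from 57.2% to 48.1%, and the same 30 of the 58 were called. The causes of these shifts were not tested. Depth is known only as a normalized sum, and genes near 0 in TNFR2- Tregs have the least certain fold changes.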
